A study of Mus musculus with 8 samples.

Results

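The galectin family was followed in RNA of mouse colon cancer cells grown together with spleen cells. Its 7 members here were Lgals1, Lgals2, Lgals3, Lgals4, Lgals8, Lgals9 and Lgals3bp, taken by gene symbol from 52636 gene IDs. All 7 passed the filter on low values (at least 1 TPM, a length-scaled transcript level that sums to 1000000 per library, in 4 or more libraries), which kept 11433 genes. The family was chosen by measured values: in an earlier pass over these libraries the TPM of Lgals9 had been lower with trogocytic than with non-trogocytic cells. Differences of members between groups are therefore a description, with no test.

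The cancer cells were colon cancer organoids with a tdTomato reporter that had formed liver metastases after injection into the spleen. Trogocytosis is the uptake of membrane pieces and their proteins from a neighbouring cell, and metastatic cells were sorted as trogocytic or non-trogocytic by their tdTomato and their CD4, a T cell protein. Both groups shared the rest: each sorted population was mixed with C57BL/6 splenocytes of Actin-GFP reporter mice, at 1 cancer cell to 50 splenocytes, for 5 days. There were 4 libraries with trogocytic and 4 with non-trogocytic cells, the latter being the control. The sources used here do not give the driver mutations of the organoids or the age and sex of the mice. Whether replicates came from separate animals or cultures is also not given, so errors and p-values measure only how these libraries differ, and that spread may be technical.

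Galectins are lectins that bind galactose-containing sugars on glycoproteins through a conserved carbohydrate recognition domain. Prototype galectins such as galectin 1 and galectin 2 carry a single domain, galectin 3 joins a domain to a long flexible tail, and the tandem repeat galectins 4, 8 and 9 carry a pair of domains on 1 chain. They are made without a signal peptide and act outside the cell, where they cross-link receptors, and inside it, where several of them mark damaged lysosomes. Galectin 9 is known as a ligand of TIM-3, an inhibitory receptor of T cells, galectin 4 as a product of gut epithelium, and the gene for galectin 9 as one that interferons induce. Lgals3bp does not encode a galectin but a secreted scavenger receptor glycoprotein that galectins bind.

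Of the 7 members, 6 had a promoter window in the RefSeq table of GRCm38.p6 (250 bases before to 50 after the start site), and Lgals1 was the member without one. Windows were searched on both strands for the core of the interferon-stimulated response element (GAAA, any 2 bases, GAAA), for the gamma-activated site TTCNNNGAA and for GAGGAAGT, a core bound by the myeloid factor PU.1. These motifs were chosen after the levels were known. Lgals9 was the 1 member of 6 with a match, and it held 2 of the interferon element, which 3.44% of all 32851 windows of 300 bases held at least once. None of the 6 held the gamma-activated site (8.3% of all windows) or the PU.1 core (3.2%). Each member had a single window, and other start sites were not searched. The windows of Lgals3 and Lgals8 lay inside the gene as listed, away from its outer start. The start sites used for Lgals3bp and Lgals9 also lay inside the listed gene, but nearer to its outer start. Among the genes of the type I interferon list, 8 of the 14 with a window held the interferon element. The windows of Lgals9 (chr11:78984875-78985174, minus strand), of Lgals3bp (chr11:118401910-118402209, minus strand) and of the interferon-induced Bst2 (chr8:71537423-71537722, minus strand) are shown to set the member with matches beside one without and beside a reference gene, with matches to either interferon motif in capitals. In Bst2, 2 interferon elements and a gamma-activated site overlap.
Lgals9: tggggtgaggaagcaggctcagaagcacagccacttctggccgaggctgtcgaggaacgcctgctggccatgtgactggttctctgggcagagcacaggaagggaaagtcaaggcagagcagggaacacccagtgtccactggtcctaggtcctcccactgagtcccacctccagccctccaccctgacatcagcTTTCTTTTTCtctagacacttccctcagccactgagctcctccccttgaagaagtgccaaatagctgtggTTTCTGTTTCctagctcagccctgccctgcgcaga
Lgals3bp: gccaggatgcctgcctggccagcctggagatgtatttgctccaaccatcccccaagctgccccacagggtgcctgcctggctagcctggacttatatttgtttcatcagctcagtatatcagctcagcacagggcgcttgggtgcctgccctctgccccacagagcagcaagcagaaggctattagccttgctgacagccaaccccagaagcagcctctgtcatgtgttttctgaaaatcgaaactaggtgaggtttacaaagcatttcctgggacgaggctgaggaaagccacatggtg
Bst2: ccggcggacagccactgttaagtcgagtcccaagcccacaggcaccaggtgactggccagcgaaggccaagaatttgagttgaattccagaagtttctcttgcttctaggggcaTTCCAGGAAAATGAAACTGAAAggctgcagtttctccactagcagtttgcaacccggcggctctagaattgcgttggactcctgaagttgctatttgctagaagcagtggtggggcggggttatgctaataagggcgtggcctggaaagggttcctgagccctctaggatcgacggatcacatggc
The matches of Lgals9 began 55 bases before and at base 16 after the start site and lay on the strand opposite to the gene. A match is a run of letters and was not tested as a binding site.

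Libraries held 1.39 to 1.84 Gb of aligned sequence each and 10867 to 12362 genes at 1 TPM or more. Epithelial and leukocyte transcripts were both present in every library. Of 15 epithelium markers 14 were tested, the highest being Krt18 at 1711 to 4617 TPM. Of 21 macrophage markers 19 were tested, the highest being Lyz2, the lysozyme gene, and Cd68. Lyz2 stood at 2636 to 12057 TPM in non-trogocytic and 1175 to 3846 TPM in trogocytic libraries (limma adjusted p = 0.9498), and Cd68 at 507 to 2039 and 312 to 1111 TPM. Of 16 T cell markers 14 were tested, the highest being Trbc1 at 150 to 289 TPM. Defining markers picked outside the naming rule, with their values known, were Epcam at 249 to 496 TPM, Adgre1 at 0 to 27.4 TPM, Csf1r at 0.175 to 4.88 TPM and Cd3e at 1.47 to 51.9 TPM. Cdx1 of the gut epithelium and Ncr1 of natural killer cells, picked likewise, were at 0 in all 8 libraries. Each was the only gene of its list at 0 throughout. Cdx2, picked likewise, stood at 0.457 to 5.88 TPM, and Nkg7 of the natural killer list at 11.2 to 111.9 TPM. Of 8 natural killer markers 2 were tested. The first replicates of both groups stood apart on the first principal component (65.6 and 57.3, against -49.1 to 19.0 for the others). RNA came from the whole mixture, so fewer cells of a type and less RNA per cell cannot be told apart in any value below.

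By TPM, levels of the members fell into an abundant set and a low set. Over all 8 libraries, Lgals1 stood at 1536 ± 719 TPM (SD, n = 8), Lgals4 at 927 ± 290.1 TPM and Lgals3 at 596 ± 336 TPM. Then came Lgals8 at 42.2 ± 14.6 TPM, Lgals2 at 28.1 ± 24.6 TPM, Lgals9 at 17.7 ± 14.2 TPM and Lgals3bp at 12.3 ± 8.96 TPM. TPM is scaled per transcript length, so these levels can be set side by side, but they depend on how reads were assigned to transcripts. By mean read depth per Gb of aligned bases, Lgals1 stood at 677, Lgals4 at 239, Lgals3 at 37.9 and Lgals8 at 13.6. The gap between Lgals3 and Lgals8 was smaller in that unit. By TPM, the gap between Lgals3 and Lgals8 was the only step that held in 8 of 8 libraries. Every other step between neighbours in this order held in 5 or 6 of 8 and was smaller than the spread between libraries. Lgals1, Lgals3 and Lgals4 together held 96.33% to 98.22% of the TPM summed over the 6 galectins. The sum itself ran from 2676 to 4450.4 TPM in non-trogocytic and from 2256.5 to 3467 TPM in trogocytic libraries, so the groups overlapped.

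**Figure D1:**
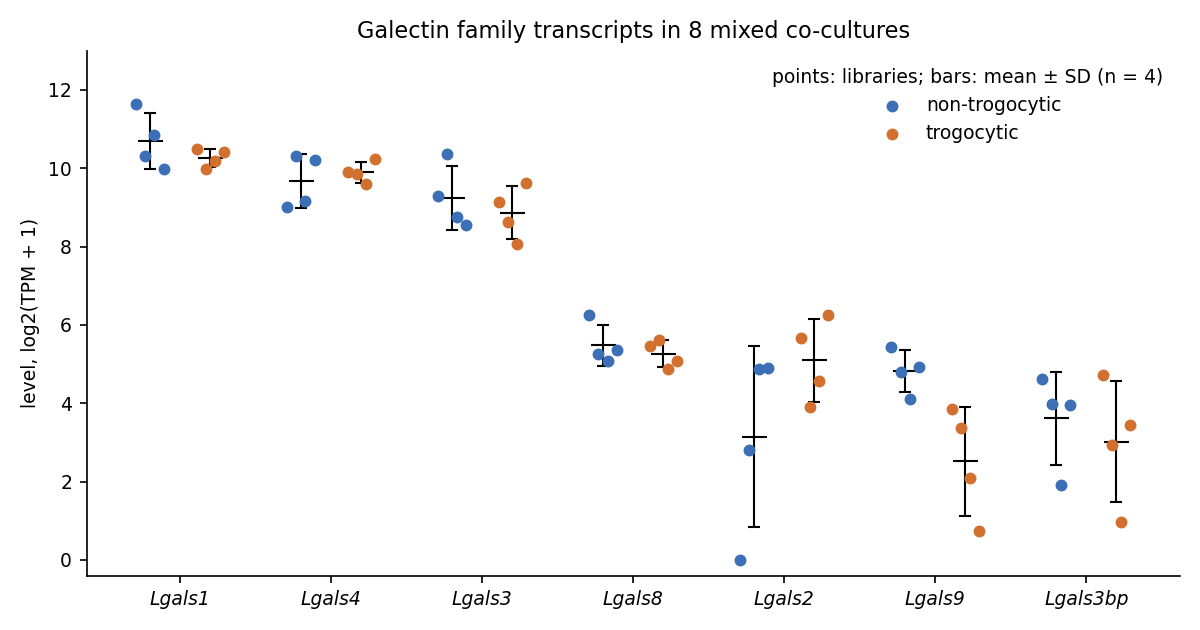
Level of each member, as log2(TPM + 1), in the 4 non-trogocytic and 4 trogocytic libraries (points), with mean and SD per group (bars). Lgals1, Lgals4 and Lgals3 lie above the other members in every library, and Lgals9 is the member whose groups do not overlap.

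**Figure D2:**
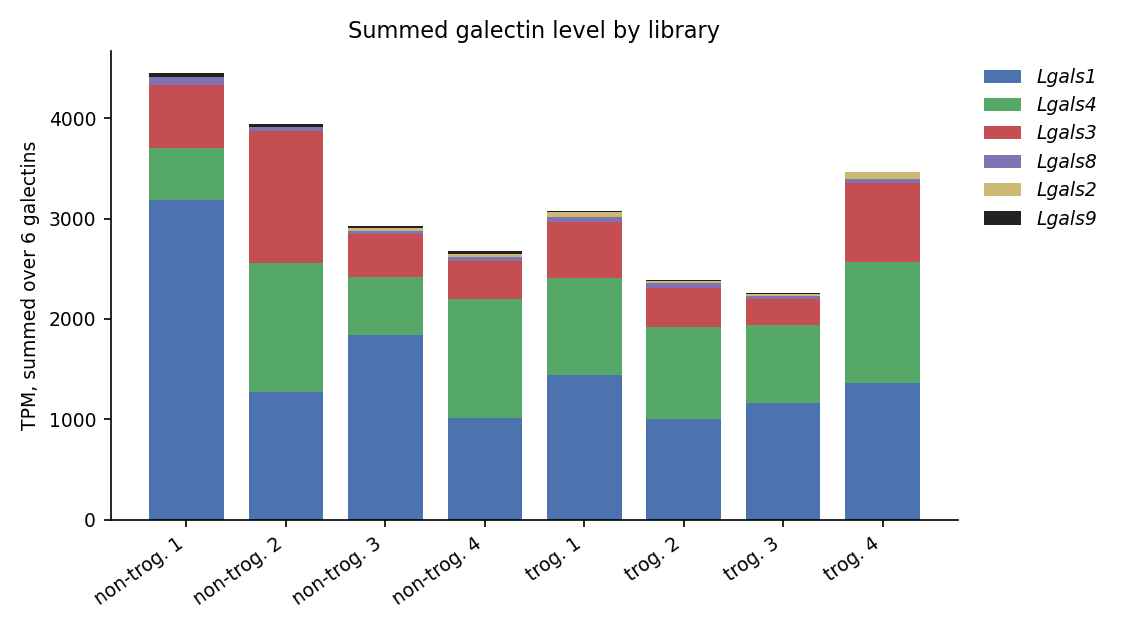
TPM of the 6 galectins stacked in each library, with the group and replicate number on the horizontal axis. Lgals1, Lgals3 and Lgals4 fill 96.33% to 98.22% of each bar, and the member with the largest share differs between libraries.

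The comparison between groups asked which members differed by the kind of cancer cell in the culture. With limma on log2(TPM + 1) and Benjamini-Hochberg adjustment over 11433 genes, 0 of 7 members had an adjusted p below 0.05, against 0.0525% of all genes tested (0.035% lower and 0.0175% higher with trogocytic cells). At an unadjusted p below 0.05 there was 1 member, Lgals9, and 525 of all genes. The groups did not overlap in 1 of 7 members, again Lgals9, against 2.68% of all genes tested (1.3% with the trogocytic group lower). Of the 7 members, 5 had a fold change below 0, against 49.3% of genes tested, and the median over the members was -0.38, against 0.007 over all genes. Nothing is read from these counts, because the members were chosen with this comparison known. A fold change below 0 means a lower level with trogocytic cells, and adding 1 to each TPM before the log makes changes of low genes look smaller.

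Lgals9 (ENSMUSG00000001123.15, GRCm38 chromosome 11, 78962974 to 78984946, minus strand) encodes galectin 9. It stood at 42.3, 26.8, 16.4 and 29.5 TPM in non-trogocytic replicates 1 to 4 and at 13.5, 9.34, 3.25 and 0.681 TPM in trogocytic replicates 1 to 4. Each trogocytic library lay below each non-trogocytic one, the nearest pair being non-trogocytic replicate 3 and trogocytic replicate 1. The means were 28.8 ± 10.7 and 6.70 ± 5.82 TPM (SD, n = 4 each), and the log2 fold change was -2.30 ± 0.65 (SE). It was between -2.75 and -1.72 under all 18 alternatives tried, the smallest size being without trogocytic replicate 4. Because the groups did not overlap, leaving libraries out could not change its sign. Lgals9 held 0.560% to 1.10% of the galectin TPM in non-trogocytic and 0.0200% to 0.439% in trogocytic libraries. Reads covered the gene model to a mean depth of 9.54 to 25.4 in the non-trogocytic group. In trogocytic replicates 3 and 4 the depth was 1.60 and 0.320, so these low levels rest on few reads.

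Marker levels of other cell types were unequal between the same libraries. Of 19 tested macrophage genes 18 had a fold change below 0 (median -0.80), and their summed level was 4357 to 18929 TPM in non-trogocytic and 2337 to 7100 TPM in trogocytic libraries. For the T cell list, 14 of 14 tested genes were above 0 (median 0.91), and the 14 epithelium genes were split 7 and 7 (median -0.02). Of 11 tested type I interferon genes 10 had a fold change below 0 (median -0.94), and of 6 interferon gamma genes 4 did (median -0.70). Over all genes tested, 49.3% had a fold change below 0. Limma called 0 genes in each of these lists, with 4, 2, 0, 4 and 1 genes at an unadjusted p below 0.05. Over all 11433 genes tested, 6 were called and 525 had such a p. The groups did not overlap in 1 macrophage, 2 type I interferon and 1 interferon gamma gene. They overlapped in all T cell and epithelium genes tested, and 2.68% of all genes tested did not overlap. Set against the macrophage list level in the same library, Lgals9 lay at -0.99 ± 0.59 (SD, n = 4) in the non-trogocytic and -2.40 ± 1.59 in the trogocytic group on the log2 scale, a difference of -1.41, and the groups overlapped. Set against the epithelium level, the difference was -2.15, and the groups overlapped there too (lowest non-trogocytic -1.82, highest trogocytic -1.75). The part of these cell types in the level of Lgals9 was not tested.

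**Figure D3:**
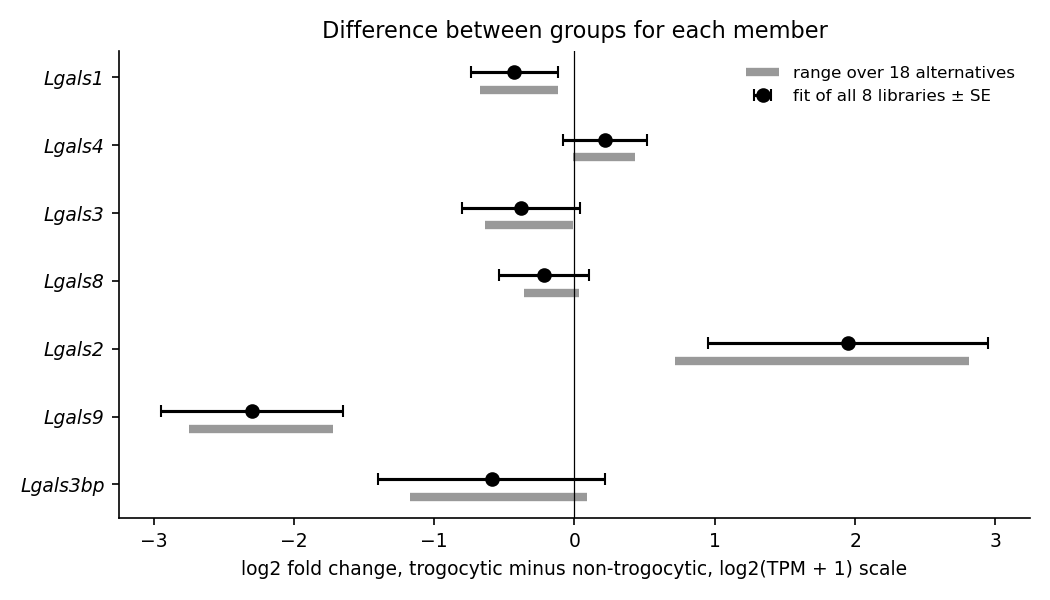
Log2 fold change of each member, trogocytic minus non-trogocytic on the log2(TPM + 1) scale (points, with SE), and its range over 18 alternative settings (grey bars). The Lgals9 range runs from -2.75 to -1.72, that of Lgals2 from 0.72 to 2.81, and those of Lgals3bp, Lgals4 and Lgals8 reach both sides of 0.

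Lgals8 (ENSMUSG00000057554.13, chromosome 13, 12439415 to 12464944, minus strand) encodes galectin 8, a tandem repeat galectin that marks damaged endosomes for autophagy. It stood at 74.9, 37.2, 32.8 and 39.9 TPM in non-trogocytic and at 42.9, 48.4, 28.4 and 32.9 TPM in trogocytic replicates 1 to 4. The groups overlapped, with non-trogocytic replicate 1 above the other 7 libraries. The log2 fold change was -0.22 ± 0.32 (SE), and 0.03 without that library. The gene shares 875 bases with Heatr1 on the opposite strand, which stood at 2.36 to 14.3 TPM. The sources used here give no strand setting for the counting, so reads of the shared stretch cannot be assigned with certainty.

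Lgals4 (ENSMUSG00000053964.17, chromosome 7, 28833854 to 28841708, plus strand) encodes galectin 4 of gut epithelium. Its levels were 516, 1278, 573 and 1189 TPM in non-trogocytic and 960.5, 919, 773 and 1206 TPM in trogocytic replicates 1 to 4. The trogocytic libraries lay within the range of the non-trogocytic ones. Means were 889 ± 400.2 and 965 ± 180 TPM (SD, n = 4 each), and the log2 fold change was 0.22 ± 0.30 (SE). It was 0 with non-trogocytic replicate 1 left out and -0.01 with both first replicates left out. Some mouse strains carry a near-identical copy, Lgals6, which was not analysed here, so reads of such a copy in the organoids could add to Lgals4.

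Lgals3 (ENSMUSG00000050335.16, chromosome 14, 47367751 to 47386160, plus strand) encodes galectin 3, which macrophages and epithelial cells both make. It stood at 631, 1319, 431 and 375 TPM in non-trogocytic and at 565, 392, 267 and 791 TPM in trogocytic replicates 1 to 4. Non-trogocytic replicate 2 was the highest of the 8 libraries, and the groups overlapped. The log2 fold change was -0.38 ± 0.42 (SE), and -0.01 without that library.

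Lgals1 (ENSMUSG00000068220.5, chromosome 15, 78926725 to 78930465, plus strand) encodes galectin 1, a prototype galectin that can trigger death of activated T cells. Its levels were 3186, 1275, 1843 and 1013 TPM in non-trogocytic and 1444, 1002, 1162 and 1360.0 TPM in trogocytic replicates 1 to 4. Non-trogocytic replicate 1 was the highest, and all 4 trogocytic libraries lay among or just below the other 3. The log2 fold change was -0.43 ± 0.31 (SE), and -0.12 without non-trogocytic replicate 1. Its pseudogenes Lgals1-ps1 and Lgals1-ps2 are copies to which reads could be assigned, so its level carries that uncertainty.

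Lgals2 (ENSMUSG00000043501.4, chromosome 15, 78850862 to 78855529, minus strand) encodes galectin 2, a prototype galectin of the gut. It was listed at 0 in non-trogocytic replicate 1 and stood at 6.04, 28.1 and 28.8 TPM in replicates 2 to 4. In trogocytic replicates 1 to 4 it stood at 49.6, 13.9, 22.9 and 75.7 TPM. The trogocytic group held the 2 highest libraries, and the groups overlapped. The log2 fold change was 1.95 ± 1.00 (SE), the only sizeable one above 0 in the family. It was 0.91 with non-trogocytic replicate 1 left out and 0.72 with both first replicates left out. The gene shares 36 bases with Cdc42ep1 on the opposite strand, which stood at 0.130 to 1.99 TPM.

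Lgals3bp (ENSMUSG00000033880.11, chromosome 11, 118392751 to 118402092, minus strand) encodes the secreted galectin 3 binding protein. It stood at 23.6, 14.8, 2.74 and 14.7 TPM in non-trogocytic and at 25.2, 6.71, 0.975 and 9.99 TPM in trogocytic replicates 1 to 4. The groups overlapped, and the third replicate was the lowest in both. The log2 fold change was -0.59 ± 0.81 (SE), and 0.09 without trogocytic replicate 3.

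**Figure D4:**
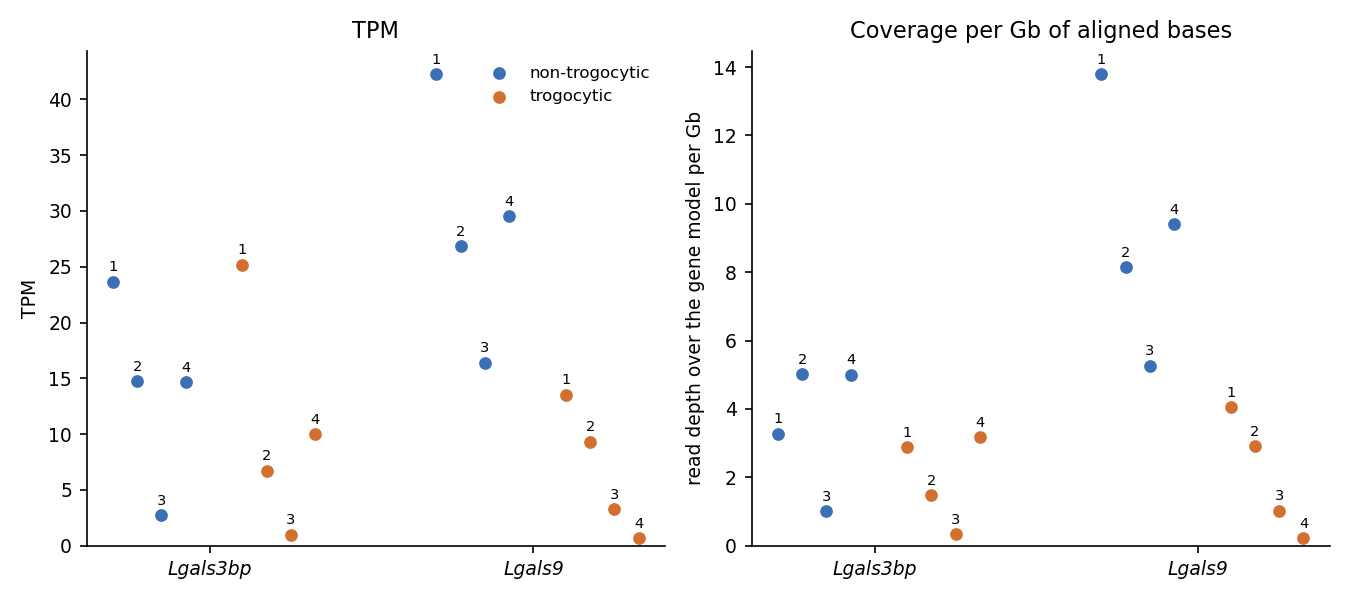
Lgals3bp and Lgals9 by TPM (left) and by read depth over the gene model per Gb of aligned bases (right), 4 libraries per group, labelled by replicate number. The first replicates lead for Lgals3bp by TPM, at 23.6 and 25.2, and not by coverage, at 3.28 and 2.88 per Gb. For Lgals9 the right panel is close to a rescaled copy of the left, since its ratio of coverage to FPKM is nearly constant.

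Each member was then related to the level of 3 gene lists over the 8 libraries, namely epithelium, macrophage and type I interferon response. A list level is the mean log2(TPM + 1) of its tested genes, and no galectin is in a list. Of the 21 relations, 0 had an adjusted p below 0.05 (exact permutation over all pairings, two-sided, Benjamini-Hochberg over 21). The 21 include 3 of Lgals9, whose pooled values carry the group difference by which it was chosen. Nothing is read from those 3, though their p-values enter the adjustment of the others. Groups of 4 are too small for a value within each group. Deviations from the group means are therefore given for the relations of Lgals4, Lgals1 and Lgals9 printed below. The other members have pooled values only, which a difference between groups can enter.

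For Lgals4 the largest pooled r was with the epithelium level, and it was not called. Pearson's r was 0.78 (exact permutation p = 0.0176, adjusted 0.1234) and Spearman's rho 0.76 (exact permutation p = 0.0368, adjusted 0.193). On deviations from group means r was 0.86 (exact permutation p = 0.059, adjusted 0.4861). Without the 2 libraries farthest from the median epithelium level, r was 0.52 (exact permutation p = 0.325, adjusted 0.7408). Its strength thus rests in part on those libraries, whose removal also narrows the range of levels. With 1 library left out r ran from 0.63 to 0.87, and it was 0.68 with both first replicates left out. With the macrophage level, Lgals4 had an r of -0.31 (exact permutation p = 0.455, adjusted 0.6799). On deviations from group means that value was -0.22 (exact permutation p = 0.6076, adjusted 0.792).

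For Lgals1 the largest pooled r was with the macrophage level, the leukocyte side of the mixture, and it was not called either. Pearson's r was 0.81 (exact permutation p = 0.012, adjusted 0.1234) and Spearman's rho 0.88 (exact permutation p = 0.0072, adjusted 0.1521). Pearson's r was 0.77 on deviations from group means (exact permutation p = 0.0052, adjusted 0.1094). Without the 2 farthest libraries it was 0.92 (exact permutation p = 0.0181, adjusted 0.3383). With both first replicates left out it was 0.67. With the epithelium level, Lgals1 had an r of -0.72 (exact permutation p = 0.0606, adjusted 0.2916), and -0.32 with both first replicates left out. On deviations from group means r with the epithelium level was -0.89 (exact permutation p = 0.0694, adjusted 0.4861). That is larger in size than the 0.77 with the macrophage level.

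No pooled value is given for Lgals9, because the group difference by which it was chosen enters each of them. On deviations from group means its r was 0.15 with the macrophage level (exact permutation p = 0.776, adjusted 0.8577). With the epithelium level it was -0.12 (exact permutation p = 0.6788, adjusted 0.792). With the type I interferon list, both Lgals9 and the list level separated the groups, at 2.89 to 3.38 on the log2 scale in non-trogocytic and 1.72 to 2.63 in trogocytic libraries. For that pair, r on deviations from group means was 0.54 (exact permutation p = 0.3333, adjusted 0.792). The list holds Bst2, at 66.0 ± 23.7 and 30.6 ± 19.5 TPM, and Rtp4, at 27.96 ± 9.82 and 9.55 ± 7.75 TPM (SD, n = 4 each), neither of which limma called (adjusted p = 0.9998 each).

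The other members gave smaller pooled values than Lgals4 with the epithelium level or Lgals1 with the macrophage level. Lgals3 had an r of 0.60 with the macrophage level (exact permutation p = 0.1165, adjusted 0.4078; rho 0.62) and 0.32 with the epithelium level (exact permutation p = 0.4378, adjusted 0.6799; rho 0.02). Lgals3bp had an r of 0.67 with the macrophage level (exact permutation p = 0.0694, adjusted 0.2916; rho 0.71) and -0.01 with the epithelium level (exact permutation p = 0.9791, adjusted 0.9791; rho -0.19). Without the 2 farthest libraries, over a narrower range, the macrophage values were 0.18 for Lgals3 and 0.34 for Lgals3bp. With 1 library left out they ran from 0.41 to 0.70 for Lgals3 and from 0.45 to 0.84 for Lgals3bp. Computed on coverage per Gb, the values of Lgals3bp were 0.52 with the macrophage and 0.43 with the epithelium level. Lgals8 had an r of 0.53 with the macrophage level (exact permutation p = 0.1806, adjusted 0.474; rho 0.43), which ran from 0.03 to 0.81 with 1 library left out. With the epithelium level it had -0.47 (exact permutation p = 0.2371, adjusted 0.5532; rho -0.19), and 0.39 with both first replicates left out. Lgals2 had an r of -0.45 with the macrophage level (exact permutation p = 0.2708, adjusted 0.5688; rho -0.12), and 0.04 with both first replicates left out. Its epithelium value was 0.27 (exact permutation p = 0.4857, adjusted 0.6799; rho 0), and it ran from -0.74 to 0.69 with 1 library left out.

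**Figure D5:**
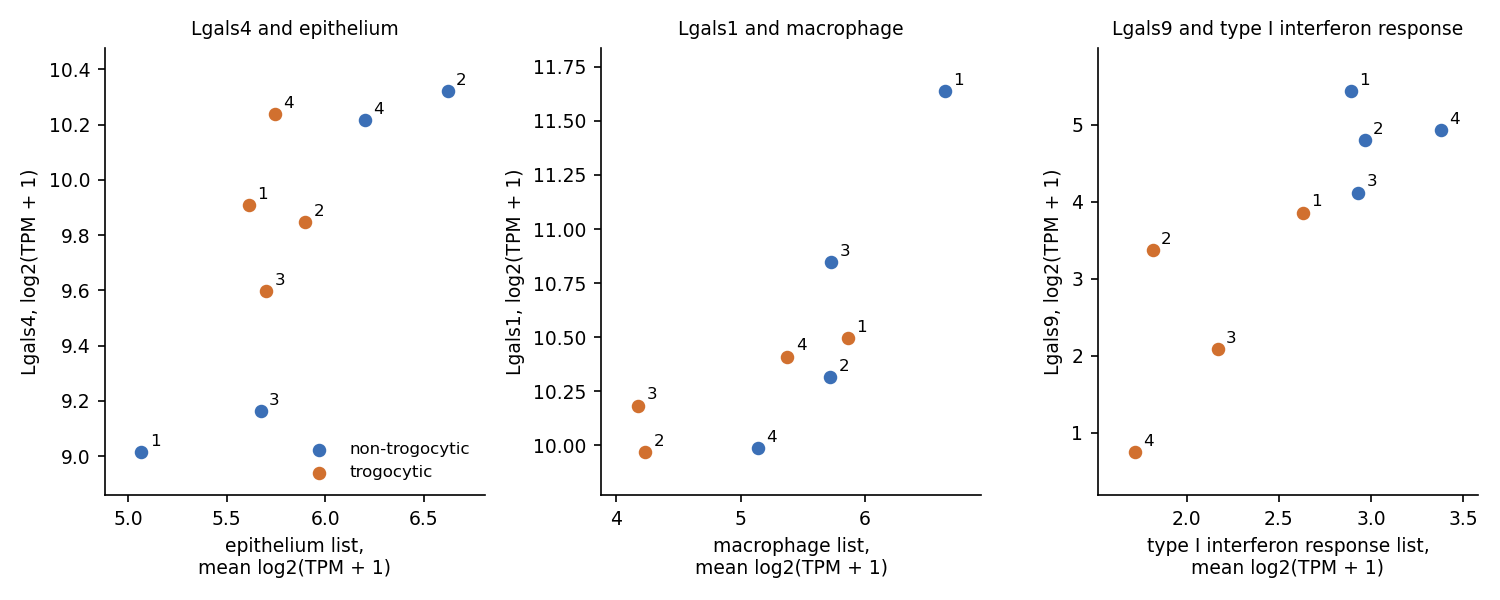
Level of Lgals4 against the epithelium list, of Lgals1 against the macrophage list and of Lgals9 against the type I interferon list, all as log2(TPM + 1), in 8 libraries labelled by replicate number and coloured by group. In the last panel both measures separate the groups, with list levels of 1.72 to 2.63 in trogocytic and 2.89 to 3.38 in non-trogocytic libraries.

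The genes most like each member were ranked by Pearson's r of log2(TPM + 1) over the 8 libraries among 7072 tested genes with a mean of at least 5 TPM. With so many genes and 8 libraries, high values arise at the top of any such ranking, and they are a description. All of them pool both groups, so a difference between groups enters each value. Most like Lgals9 were the chemokine gene Ccl25, P4ha1, a collagen prolyl hydroxylase, and the interferon-induced Rtp4. Their values are not given, because the group difference by which Lgals9 was chosen enters them, and nothing is read from their rank. Most like Lgals1 were Cstb, a cathepsin inhibitor (r = 0.987), the kinase gene Lyn (0.965) and Fcer1g, an antibody receptor chain of the macrophage list (0.965). For Lgals4 they were Sil1, Wdr48 and Chmp6 (0.983 to 0.965), and for Lgals3 Bcl10, Osbpl9 and Cirbp (0.973 to 0.948).

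Genes that work with galectins were looked at next. Of 25 binding partners 19 were tested. Limma called 0 in either direction (1 at an unadjusted p below 0.05), against 6 and 525 of all 11433 genes tested. With so small a share called over all genes, 0 of 19 says little about the partners. Among the 19, 11 had a fold change below 0 and 8 above, with a median of -0.03 against 0.007 over all genes. The transferrin receptor gene Tfrc stood at 190.0 ± 61.0 and 172 ± 59.7 TPM and the lysosomal membrane gene Lamp2 at 219 ± 81.2 and 173 ± 22.2 TPM (SD, n = 4 each). Pdpn, which encodes the galectin 8 ligand podoplanin, had the smallest p (33.9, 11.5, 30.2 and 2.90 against 1.05, 0.273, 1.02 and 8.88 TPM, limma adjusted p = 0.9388). Dpp4, a surface peptidase, stood at 3.003 ± 1.78 and 6.03 ± 1.19 TPM. Havcr2, which encodes the galectin 9 receptor TIM-3 and was picked with its values known, stood at 0.952 to 7.75 TPM in non-trogocytic and 1.54 to 19.7 TPM in trogocytic libraries. Lag3, a receptor that galectin 3 binds and likewise picked, was listed at 0 in all 8 libraries.

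Enzymes that build the sugars galectins bind were also measured. Of 18 such genes 15 were tested. Limma called 0 in either direction (1 had an unadjusted p below 0.05), against 6 and 525 of all 11433 genes tested. Fold changes were below 0 in 9 and above 0 in 6, with a median of -0.10. C1galt1c1, the chaperone of core 1 O-glycan synthase, stood at 91.7 ± 23.8 and 102 ± 19.5 TPM, and the galactosyltransferase gene B4galt1 at 91.8 ± 37.6 and 117 ± 45.9 TPM (SD, n = 4 each). Slc35a2, the UDP-galactose transporter, had 11.9 ± 8.09 and 3.80 ± 3.66 TPM, with a limma adjusted p of 0.9998. B4galt4 had 5.46 ± 3.38 and 1.80 ± 2.06 TPM. The groups did not overlap in 1 of the 15, the core fucosyltransferase gene Fut8, named after its values were seen, at 18.4 to 20.5 and 10.2 to 16.8 TPM, against 2.68% of all genes tested.

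The response to damaged lysosomes, which galectins 3, 8 and 9 help to start, had 14 genes, of which 11 were tested. Limma called 0 in either direction (1 at an unadjusted p below 0.05), against 6 and 525 of all 11433 genes tested. Fold changes were below 0 in 7 and above 0 in 4 (median -0.06). The autophagy gene Map1lc3b stood at 450 ± 61.2 and 444 ± 52.3 TPM, and the autophagy receptor gene Tax1bp1 at 354 ± 56.6 and 403 ± 26.7 TPM (SD, n = 4 each). Trim16, a partner of galectin 3, stood at 7.83 ± 9.74 and 17.8 ± 8.21 TPM (limma adjusted p = 0.9998). Chmp4b, of the membrane repair machinery, stood at 23.7 to 40.1 TPM in non-trogocytic and 17.8 to 23.0 TPM in trogocytic libraries. It was the 1 of 11 tested genes whose groups did not overlap, against 2.68% of all genes tested. Calcoco2, a galectin 8 partner named after its values were seen, was listed at 0 in all 8 libraries.

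Of the other family members, 2 were tested. Limma called 0, with an unadjusted p below 0.05 in 0 of them, against 6 and 525 of all 11433 genes tested. Lgalsl, a galectin-like gene, stood at 10.8 to 32.3 TPM in non-trogocytic and 13.7 to 47.3 TPM in trogocytic libraries. Lgals7, of stratified epithelium, was listed at 0 in 3 libraries and reached 7.81 TPM.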

How the data were processed

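RNA from 8 mixed co-cultures, 4 per group, was polyA-selected and sequenced as paired reads of 100 bp, per the labels' protocols. Alignment and quantification tools and builds, per the submitters' processing notes, were HISAT2 and StringTie 1.3.3 with GRCm38 and mm10, and DESeq version 2 is also named there. For the annotation release and strand setting, the sources used here give nothing. Per the file headers, each deposited table gives a coverage (mean read depth over the gene model, unscaled), an FPKM and a TPM per gene, and the authors' TPM sums to 1000000 in each library. The deposited FPKM and coverage served as alternatives.

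TPM was summed per gene ID. Genes with at least 1 TPM in 4 or more libraries entered a limma fit of log2(TPM + 1), two-sided, whose prior variance followed the mean level (limma 3.58.1 in R 4.3.3). Aligned bases were taken as coverage over FPKM in genes with 1 transcript in GENCODE M21. Of 52636 gene IDs, 49035 had the same version there. Relations to list levels used Pearson's r with exact permutation. Alternatives covered unit, pseudocount, filter, scaling, variance model, replicate block and each library left out.

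The members and lists were chosen with earlier results of these data known. The naming rule took the 7 members, of each list of partners or enzymes the 2 tested genes with the highest mean and the 2 with the smallest p, of each cell type and interferon list the 2 with the highest mean, and 3 like genes per member, of which a part is printed. Markers, receptors and enzymes named outside it are marked where they appear. Coverage per Gb and the promoter motifs were chosen after seeing the data. The result of every named list is given with its count, save the B cell, plasma cell, neutrophil, natural killer, dendritic and stromal lists. In these limma called 0 genes, also with 0 at an unadjusted p below 0.05, against 6 and 525 of all 11433 genes tested. That says little where few genes passed the filter: 1 of 10 stromal, 2 of 8 natural killer and 3 of 9 dendritic genes were tested. Genes below the filter were not compared between groups.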

Additional observations from a re-analysis of the deposited data

Results flagged for a closer look

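In 154 groups of 4 libraries, 6 had a library far from the other 3 by Dixon's ratio, where chance gives about 1 in 20. The type I interferon list level was 3.38 on the log2 scale in non-trogocytic replicate 4, against 2.89 to 2.96 in the other 3. The plasma cell list level was 3.65 in the same library, against 4.94 to 5.08, and Ighm stood there at 3.21 TPM, against 58.7 to 98.5 TPM. Pex13 and Arrdc4, among the genes most like Lgals3bp, stood at 4.04 and 3.82 TPM in non-trogocytic replicate 3, against 18.1 to 24.0 and 13.6 to 17.2 TPM. Lgals3bp was lowest in that group in the same library. Both genes were picked by their r with Lgals3bp over these libraries, so nothing is read from that match. Ly6g stood at 336 TPM in trogocytic replicate 3, against 168 to 177 TPM. No library of any member was far from its group by this measure.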

How the results depend on the processing

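Over 18 alternatives, 0 of 7 members and 0 list genes were called in any fit. Lgals2 kept a fold change above 0 in 18 of 18. The sign changed or reached 0 in 2 of 18 for Lgals4, in 1 for Lgals8 and in 1 for Lgals3bp. Lgals9 stayed below 0 in 18 of 18, but leaving libraries out could not change the sign of groups that do not overlap. The filter, the variance model and a replicate block also left its fold change at -2.30, so its constant sign is no measure of robustness. The number of genes called over all genes was 6, and it was 1 with no filter on low values, 1 with a constant prior variance (no trend on the mean), and 0 with both first replicates left out. With 1 library left out it ran from 0 to 3, where fewer samples are fitted, and the cause of the other changes was not tested. Whether replicate numbers pair the libraries is not settled by the values. Same-numbered deviations correlated at 0.235, 0.005, 0.062 and -0.093, and differently numbered ones at -0.214 to 0.166. The first replicates gave the highest value of all pairs. A replicate block left 0 calls, and 0 with median-of-ratios scaling. Of 21 relations, 0 were called under any of the 16 alternatives. At a mean read depth of 0.320 for Lgals9, and for other members near 1 TPM, depth limits what a fold can show.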

Other observations

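The level of Lgals3bp depended on how depth was turned into a level. By TPM the first replicates of both groups were the highest, at 23.6 and 25.2 TPM. By coverage per Gb of aligned bases they stood at 3.28 and 2.88, below non-trogocytic replicates 2 and 4 at 5.01 and 5.00. The ratio of coverage to FPKM, set to 1 for genes with 1 transcript, was 0.302 and 0.272 in the first replicates, 0.499 in trogocytic replicate 2 and 0.736 to 0.818 in the other 5 libraries. GENCODE M21 lists 5 transcripts for this gene, and the division of its reads among them was not analysed here. For Lgals3 the same ratio was 0.143 to 0.149 and for Lgals9 0.711 to 0.742 in all 8 libraries. Coverage per Gb is therefore close to a rescaled FPKM for Lgals9 and is no separate measure of it.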
